A study of Danio rerio with 10 samples.

Results

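Between the brains of one ppp2r2c mutant zebrafish line and WT brains, 78 of 32266 genes in the count table met a rule of separation, 37 of them higher and 41 lower in the mutant. A gene was taken when its highest level in one genotype was at most 0.4 times its lowest level in the other, and when its mean in the higher genotype reached 1 CPM, a count scaled by the library's total over all genes. Of all genes, 27111 had at least 1 count and 18282 reached that mean, so the 78 members made up 0.427% of them (0.202% higher and 0.224% lower in the mutant). Members were thus chosen by their CPM in the same libraries, and the difference between genotypes is therefore given as a description with no test.

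The study asked how the loss of ppp2r2c, which encodes a brain regulatory subunit of protein phosphatase 2A, changes the brain and whether drugs act on that change. All fish were 6 months old and of the Tübingen strain, and each library held the RNA of 2 pooled brains. The groups were wild type (WT, 2 libraries), ppp2r2c m/m (labelled a4 mutant, and called the vehicle group by the study, 2 libraries), ppp2r2c m/m fed methylphenidate (MPH) at 1.08 mg/kg for 3 days (3 libraries) and ppp2r2c m/m fed valproate at 300 mg/kg for 3 days (3 libraries). No WT fish received a drug. The mutant is one line with a CRISPR-Cas9 frameshift in ppp2r2c, so that the mutation and anything else that line carries cannot be told apart in these libraries. The labels do not say whether libraries of a group came from separate clutches or tanks, and p-values measure only the spread between these libraries.

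Protein phosphatase 2A removes phosphate groups from many proteins, and its regulatory B subunits choose the substrates. MPH blocks the reuptake of dopamine and noradrenaline, and the study used it as an activator of protein phosphatase 2A. Valproate is an anticonvulsant that also inhibits histone deacetylases. Several of the genes described below belong to the major histocompatibility complex (MHC), whose gene content differs between zebrafish haplotypes. Its class I molecules present peptides from inside the cell and its class II molecules present peptides that a cell has taken up.

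Library totals lay between 19224942 and 25851076 counts. A library with no count of a gene allows up to 3 counts (counting error only). In bulk brain RNA, fewer cells of a type and less RNA per cell cannot be told apart. Markers of neurons and oligodendrocytes were high in every library. They summed to 1892 to 2962 CPM over 4 neuronal genes and to 6551 to 14294 CPM over 7 oligodendrocyte genes. None of the markers found for brain cell types or the other tissues listed was a member, apart from 3 genes of a liver list described below. Not every listed marker was found (neurons 4 of 10). With 0.427% of all genes members, lists this short cannot show whether cell types differed between genotypes. The targeted gene, ppp2r2c (ENSDARG00000056797), was not a member. WT had 1105 and 1239 counts of it, with 1053 and 1026 with vehicle, 1111, 1600 and 918 with MPH, and 1454, 1137 and 1293 with valproate. The mean was 55.1 ± 5.15 CPM in WT (SD, n = 2) and 47.2 ± 2.20 CPM with vehicle (SD, n = 2). Over all mutant libraries it was 54.1 ± 11.3 CPM (SD, n = 8). The study reported less ppp2r2c mRNA in mutant brains by RT-qPCR, another measure than counts per gene. Counts per gene do not read the edited bases and so do not check the genotype.

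**Figure D1:**
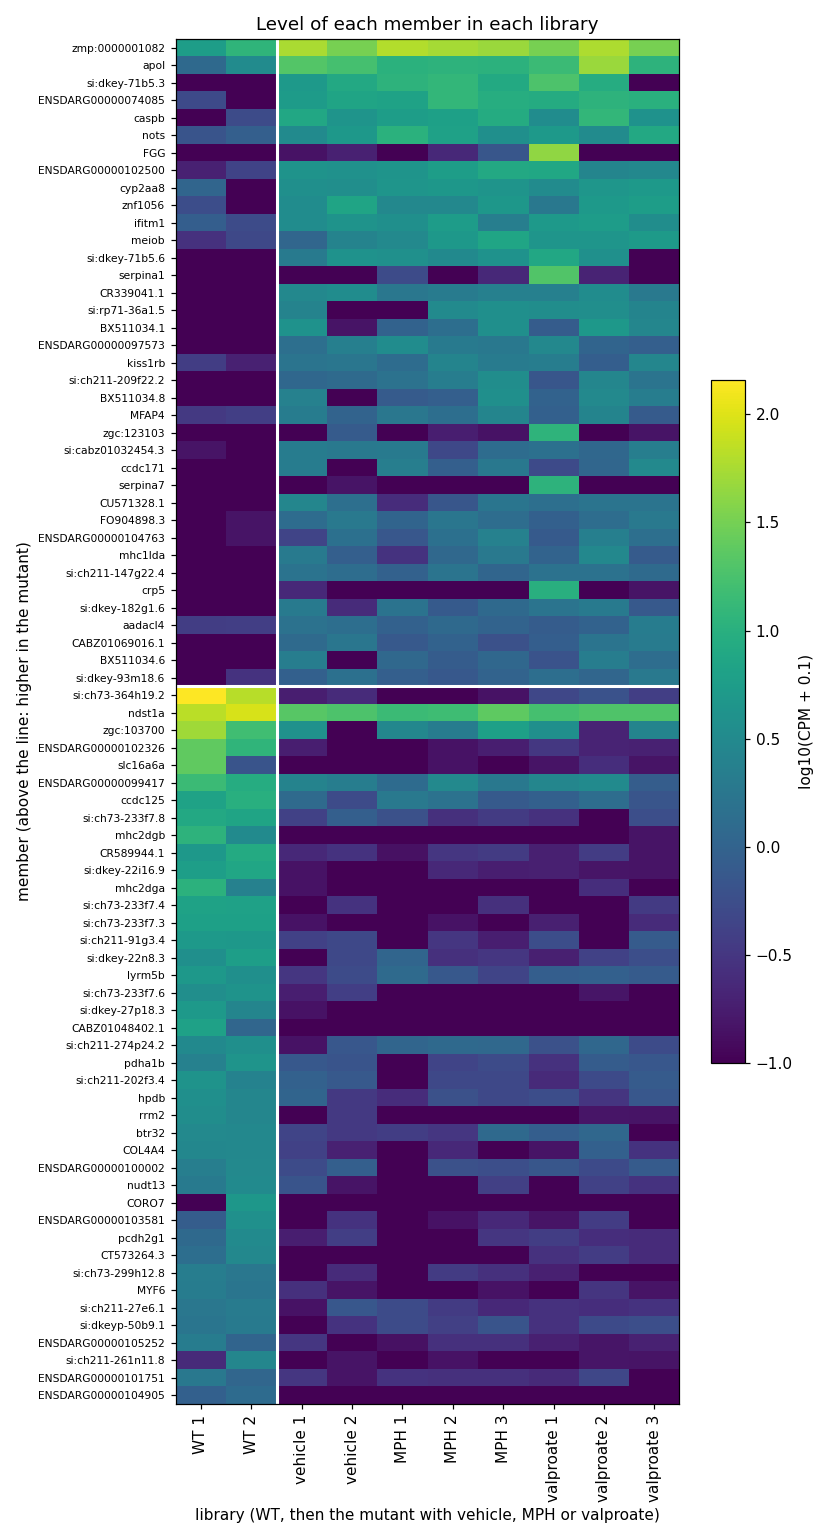
Level of the 78 members (rows) in the 10 libraries (columns), as log10(CPM + 0.1) on the colour scale. The 37 genes above the white line are higher and the 41 below it lower in the 8 mutant libraries, and the darkest cells are libraries with no counts.

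The 2 sets differed in level. Their counts at 0 cannot be set against each other, since higher members need 0 in 2 WT libraries and lower members in 8 mutant libraries. Members higher in the mutant were mostly weak, with a median of 1.82 CPM over the mutant libraries, 20 of 37 under 2 CPM and 7 at 5 CPM or more. Members lower in the mutant had a median WT level of 3.38 CPM, with 14 of 41 at 5 CPM or more. Many members were near an on and off pattern: 20 of the 37 higher members had no count in either WT library, 3 of the 41 lower members had none in any mutant library, and 10 lower members had 3 counts or fewer in every mutant library. The rule also accepts 0 against 0, and 11 higher members and 1 lower member had no counts in at least 1 library of each genotype. Without these, 26 higher and 40 lower members were left.

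Among the members higher in the mutant, the most abundant was zmp:0000001082 (ENSDARG00000098899), a gene without an assigned function. It had 122 and 242 counts in WT, 1306 and 687 with vehicle, 1601, 1246 and 1121 with MPH, and 707, 1141 and 677 with valproate. In scaled values this was 8.57 ± 4.09 CPM in WT (SD, n = 2) and 47.1 ± 12.8 CPM in the mutant (SD, n = 8), 5.50-fold higher. Every mutant library lay above both WT libraries, as the rule requires. The gene apol (ENSDARG00000073718) encodes an apolipoprotein L, a lipid-binding family linked to innate immunity in humans. Its counts were 24 and 68 in WT, 466 and 352 with vehicle, 264, 259 and 245 with MPH, and 310, 927 and 226 with valproate. The mean was 8.18-fold higher in the mutant, and the library of valproate replicate 2 stood above the rest.

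Further members higher in the mutant included genes of immunity and of proteolysis. The gene caspb (ENSDARG00000052039) encodes a caspase of the zebrafish inflammasome. It had 0 and 9 counts in WT, 181 and 89 with vehicle, 144, 143 and 203 with MPH, and 73, 236 and 83 with valproate, a mean of 0.213 ± 0.301 CPM in WT (SD, n = 2) against 6.51 ± 2.99 CPM in the mutant (SD, n = 8). The gene ifitm1 (ENSDARG00000093303) belongs to the interferon-induced transmembrane proteins, which hinder the entry of viruses into cells in mammals. It had 17 and 9 counts in WT and 50 to 127 (median 89.5) in the mutant. The gene nots (ENSDARG00000099824) encodes nothepsin, an aspartic protease, and had 12 and 17 counts in WT and 63 to 269 (median 104) in the mutant. As the rule requires, none of these 3 genes had a mutant library at or below a WT library.

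Genes of metabolism, meiosis and transcription were also higher. The gene cyp2aa8 (ENSDARG00000104540), a cytochrome P450, had 21 and 0 counts in WT and 71 to 113 (median 91) in the mutant, among the 3 narrowest spreads over mutant libraries of all higher members. The gene meiob (ENSDARG00000062442) encodes a protein that binds single-stranded DNA in meiotic recombination, as known from mice. It had 4 and 8 counts in WT, 23 and 53 with vehicle, 77, 112 and 165 with MPH, and 94, 84 and 107 with valproate. The zinc finger gene znf1056 (ENSDARG00000100329) had 10 and 0 counts in WT and 38 to 146 (median 84.5) in the mutant. The vehicle libraries of meiob were the lowest of its mutant libraries, whereas a vehicle library was the highest for znf1056.

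At lower levels, kiss1rb, a receptor for the reproductive peptide kisspeptin, had 6 and 2 counts in WT and 15 to 60 (median 41) in the mutant. MFAP4, named for a microfibril-associated glycoprotein of the extracellular matrix, had 5 and 6 counts in WT and 15 to 61 (median 36.5) in the mutant. The gene aadacl4, of the arylacetamide deacetylase family, had 6 and 6 counts in WT and 16 to 42 (median 24) in the mutant. These 3 genes were weak but present in all 10 libraries.

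Other members higher in the mutant carry only a clone name or an identifier. ENSDARG00000074085 had 9 and 0 counts in WT and 123 to 283 (median 199) in the mutant, and ENSDARG00000102500 had 2 and 7 in WT and 51 to 185 (median 102) in the mutant. CR339041.1 (ENSDARG00000051710) had no counts in WT, 66 and 71 with vehicle, 44, 46 and 53 with MPH, and 50, 64 and 38 with valproate, at least 17.4-fold higher. It was therefore present in every mutant library and in no WT library. ENSDARG00000097573 and si:ch211-147g22.4 had no counts in WT and 17 to 87 and 22 to 36 counts in the mutant libraries. A further 7 higher members had 0 to 4 counts in WT libraries and 4 to 80 in mutant libraries, with mutant means of 1.08 to 1.75 CPM.

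Several higher members were missing from single mutant libraries, and those of one clone were missing together. All 3 genes named for the clone BX511034 were members. BX511034.1 had 91 and 1 counts with vehicle, 23, 30 and 86 with MPH, and 16, 92 and 57 with valproate. BX511034.8 had 54 and 0, then 18, 19 and 86, then 19, 57 and 43 in the same order, and BX511034.6 had 48 and 0, then 28, 17 and 24, then 12, 40 and 26. None had a count in WT, and all 3 were at 1 count or 0 in vehicle replicate 2. In that library ccdc171, which encodes a coiled-coil protein, also had 0 counts against 9 to 62 in the other mutant libraries, si:rp71-36a1.5 had 0 there and in MPH replicate 1 against 54 to 85 elsewhere in the mutant, and si:dkey-182g1.6 had 3 against 14 to 42.

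The 2 members of the clone dkey-71b5 shared another missing library. The gene si:dkey-71b5.3 (ENSDARG00000095522) had no counts in WT, 111 and 168 with vehicle, 279, 288 and 192 with MPH, and 409, 170 and 0 with valproate. The gene si:dkey-71b5.6 (ENSDARG00000092801) had no counts in WT, 42 and 83 with vehicle, 97, 72 and 94 with MPH, and 168, 73 and 0 with valproate. Both were therefore absent from valproate replicate 3 as from WT. A second identifier with the same symbol, ENSDARG00000098861, was not a member and was seen in WT, with 89 and 80 counts there and 2 to 84 in the mutant libraries.

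Such gaps were reflected in the spread. The highest mutant library exceeded the lowest by over 5-fold in 19 of 37 higher members (51.4%), against 8.40% of the 17551 genes with a mutant mean of at least 1 CPM. Over 10-fold, the shares were 40.5% and 3.29%. Most higher members are weak, and counting error widens this ratio at low counts. A library at 0 was set to 3 counts for this ratio. All 11 higher members that enter only as 0 against 0 were over 10-fold, from 14.6-fold (BX511034.6) to 370-fold (FGG). The shares of the higher members therefore follow in part from the rule.

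**Figure D2:**
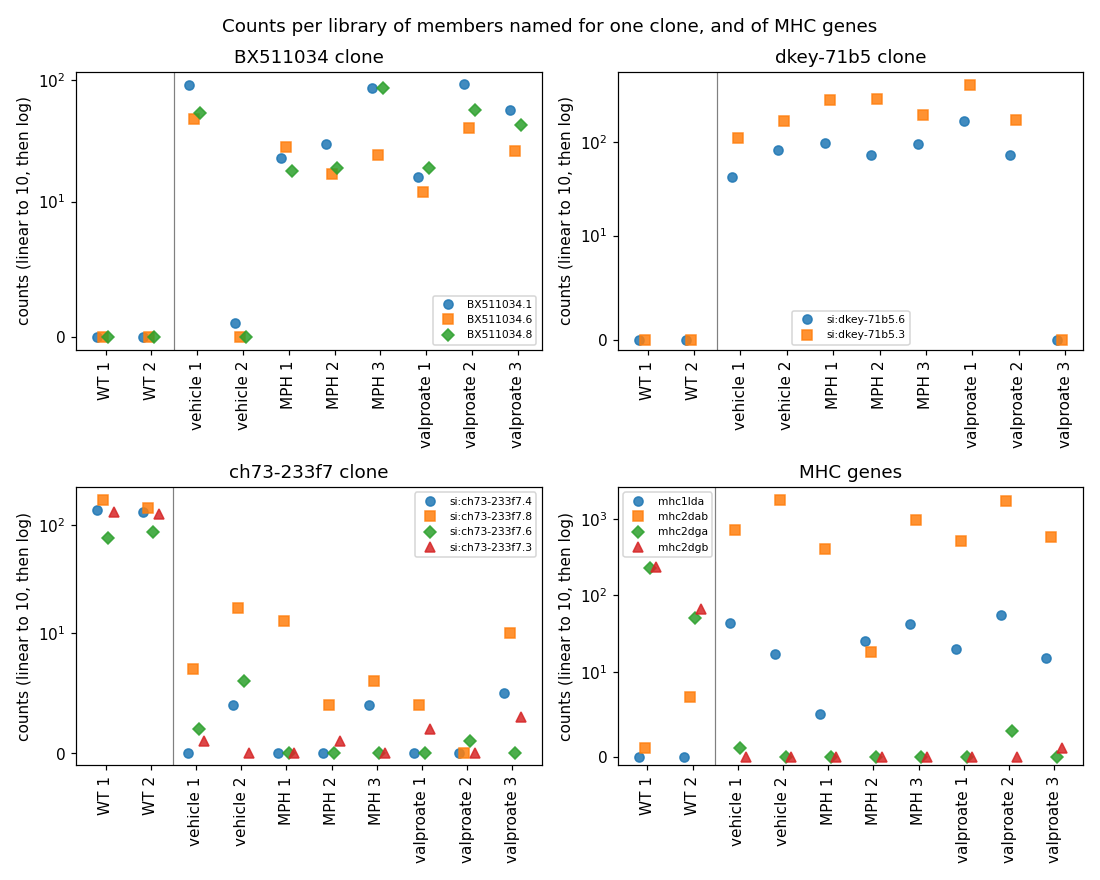
Counts in each of the 10 libraries for members named for the same clone (BX511034, dkey-71b5, ch73-233f7) and for 4 MHC genes, on an axis that is linear to 10 and logarithmic above. The BX511034 members fall to 1 or 0 counts in vehicle replicate 2, the dkey-71b5 members to 0 in valproate replicate 3, and the ch73-233f7 members lie at 77 to 172 counts in WT and at 17 or fewer in the mutant.

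A group of 5 higher members rested on 1 library. FGG, the gamma chain of fibrinogen, had 936 counts in valproate replicate 1, none in WT and at most 14 in the other mutant libraries. The protease inhibitor serpina1 had 438 counts in that library and at most 11 elsewhere, serpina7, of the same family, had 236 and at most 1, crp5, a C-reactive protein, had 210 and at most 3, and zgc:123103 had 243 and at most 15. All 5 had at least 1 mutant library with no counts, and none met the rule without valproate replicate 1. Without that library there were 77 members, 32 higher and 45 lower, 73 of them shared with the full set. The liver makes most of the fibrinogen and protease inhibitors of blood plasma. A list of liver genes, chosen after these values were seen, was set beside them: 20 of 20 listed genes that were not members and not abundant in WT brain (over 1000 counts in both WT libraries, which left out CP and RBP4) were highest in valproate replicate 1. Their sum was 613 CPM in that library and 18.2 to 40.3 CPM in the others, and fabp10a, the liver fatty acid-binding protein, had 1949 counts against at most 20. CP and RBP4 were not highest there: CP had 376 CPM against 906 and 1122 CPM in WT, and RBP4 had 407 CPM against 598 and 510 CPM. The whole list, with these genes and the members, summed to 1469 CPM in that library and 534 to 1848 CPM in the others. The part of liver RNA in these 5 members was not tested.

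**Figure D3:**
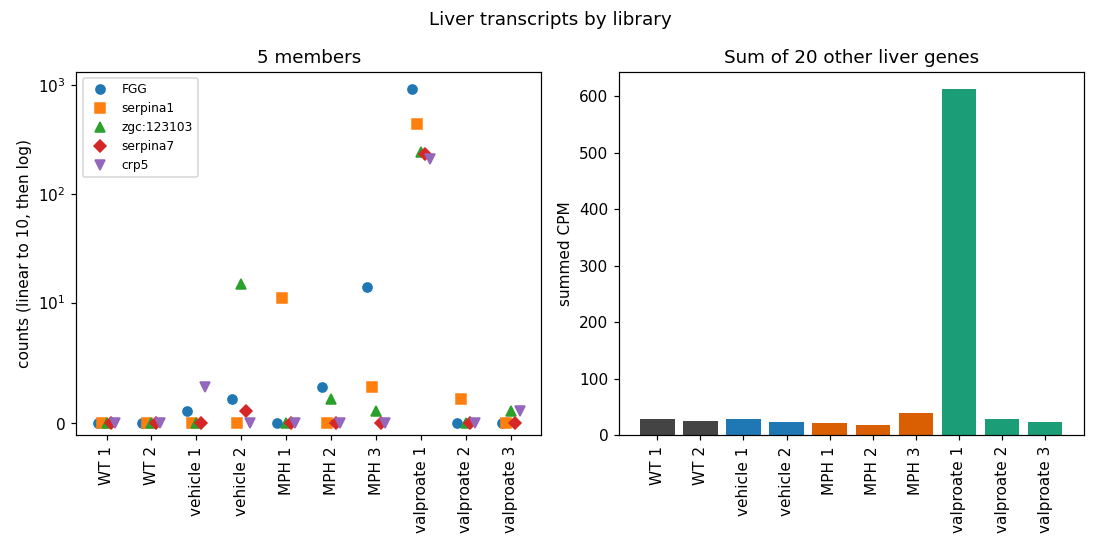
Left, counts of 5 members in each library, on an axis that is linear to 10 and logarithmic above. Right, summed CPM of 20 other liver genes per library, without CP and RBP4, 613 CPM in valproate replicate 1 and 18.2 to 40.3 CPM in the other 9 libraries.

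Among the members lower in the mutant, si:ch73-364h19.2 (ENSDARG00000100480), which has only a clone name, had the highest WT level. It had 3098 and 1401 counts in WT, 2 and 3 with vehicle, 0, 0 and 1 with MPH, and 8, 10 and 6 with valproate. The mean was 105 ± 55.0 CPM in WT (SD, n = 2) and 0.181 ± 0.191 CPM in the mutant (SD, n = 8). ENSDARG00000102326 behaved alike, with 527 and 244 counts in WT and 0 to 5 in the mutant. The most evenly expressed of the strong members was ndst1a (ENSDARG00000062397), an enzyme that modifies heparan sulfate chains. It had 1438 and 1935 counts in WT, 496 and 398 with vehicle, 361, 351 and 546 with MPH, and 361, 377 and 399 with valproate, 4.28-fold lower in the mutant (79.3 ± 17.5 CPM, SD, n = 2, against 18.5 ± 3.19 CPM, SD, n = 8). It was therefore reduced in the mutant but remained well expressed in all 8 libraries.

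Other strong lower members had uneven libraries in one genotype. The gene zgc:103700 had 1098 and 324 counts in WT, 88 and 0 with vehicle, 73, 47 and 142 with MPH, and 79, 2 and 53 with valproate. The gene slc16a6a encodes a monocarboxylate transporter that exports ketone bodies from the liver in zebrafish, and had 521 and 12 counts in WT and 0 to 3 in the mutant. Its 2 WT libraries differed more than the lower of them differed from the highest mutant library. ENSDARG00000099417 had 308 and 189 counts in WT and 16 to 70 (median 50.5) in the mutant, and ccdc125, a coiled-coil protein gene, had 138 and 208 in WT and 9 to 47 (median 21) in the mutant.

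Genes of metabolism among the lower members had low counts. The gene pdha1b encodes an E1 alpha subunit of pyruvate dehydrogenase, which feeds carbon from glycolysis into the citric acid cycle, and had 50 and 88 counts in WT and 0 to 15 (median 11) in the mutant. The gene hpdb, a 4-hydroxyphenylpyruvate dioxygenase of tyrosine breakdown, had 78 and 58 counts in WT and 4 to 22 (median 9.5) in the mutant. The gene rrm2 encodes the small subunit of ribonucleotide reductase, which supplies deoxynucleotides for DNA synthesis, and had 74 and 57 counts in WT and 0, 5, 0, 0, 0, 0, 1 and 1 in the mutant libraries, in the order vehicle, MPH and valproate. The 3 genes were all under 4 CPM in WT on average, and rrm2 came closest to absence in the mutant. The gene lyrm5b, of the LYR motif family of mitochondrial proteins, had 102 and 77 counts in WT and 5 to 29 in the mutant, and nudt13, of the Nudix hydrolases, had 41 and 66 against 0 to 13.

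Structural and regulatory genes made up a further group. COL4A4, a collagen chain of basement membranes, had 61 and 60 counts in WT and 0 to 16 (median 2.5) in the mutant. MYF6, a transcription factor of skeletal muscle, had 44 and 34 counts in WT and 0 to 4 (median 1) in the mutant. The gene pcdh2g1, of the clustered protocadherins that mediate contact between neurons, had 24 and 66 counts in WT and 0 to 6 in the mutant, and btr32, of the bloodthirsty-related family of TRIM proteins, had 63 and 60 against 0 to 26. Skeletal muscle markers summed to 6.47 and 21.2 CPM in WT and to 5.33 to 22.3 CPM in the mutant, and the part of muscle RNA in MYF6 was not tested.

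For 5 lower members the WT libraries themselves differed by over 5-fold, 12.2% of 41 against 1.65% of the 17839 genes with a WT mean of at least 1 CPM. Those genes were not matched for level, and counting error widens this ratio at low counts. Of the 5 members, all but slc16a6a had a WT mean under 5 CPM. A WT library at 0 was set to 3 counts for this ratio. CORO7, named for a coronin of the Golgi apparatus, had 0 and 96 counts in WT and none in the mutant, and si:ch211-261n11.8 had 3 and 58 in WT and 0 or 1 in the mutant. CABZ01048402.1 had 135 and 21 counts in WT and none in the mutant. The fourth was slc16a6a, and the fifth was ENSDARG00000103581, with 16 and 80 counts in WT and 0 to 5 in the mutant. The WT libraries also differed in retinal markers, which summed to 6.00 CPM in WT replicate 1 and 91.0 CPM in WT replicate 2. In the mutant they summed to 133 CPM in valproate replicate 2 and to 4.72 to 11.1 CPM in the other libraries. In valproate replicate 2, CORO7 and CABZ01048402.1 had 0 counts, si:ch211-261n11.8 had 1, slc16a6a had 3 and ENSDARG00000103581 had 5. The part of such tissue in these genes was not tested.

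**Figure D4:**
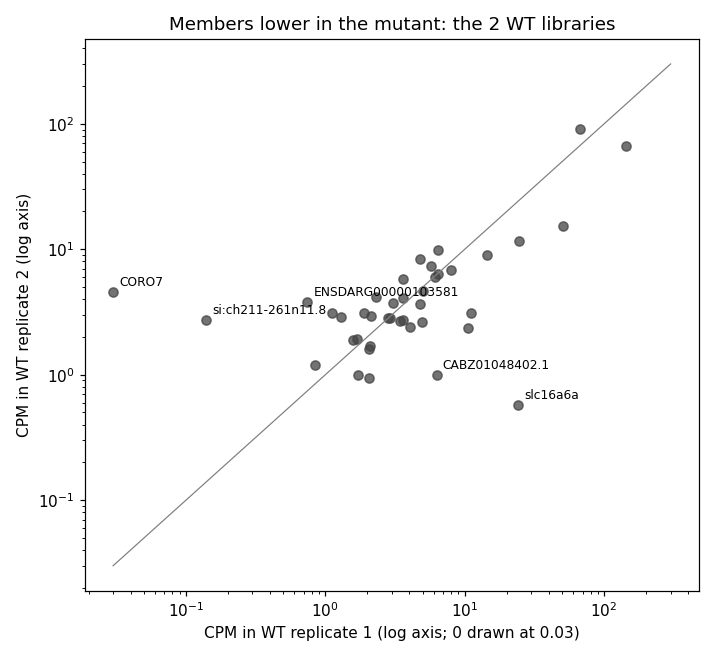
CPM of the 41 members lower in the mutant in WT replicate 1 (horizontal) and WT replicate 2 (vertical), both on log axes, with 0 drawn at 0.03. Points on the line are equal in both libraries, and the 5 named members differ by over 5-fold between them.

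A single clone gave 4 lower members. The genes si:ch73-233f7.3, si:ch73-233f7.4, si:ch73-233f7.6 and si:ch73-233f7.8 had 77 to 172 counts in each WT library. In the mutant libraries si:ch73-233f7.3 had 0 to 3 counts, si:ch73-233f7.4 had 0 to 5, si:ch73-233f7.6 had 0 to 6 and si:ch73-233f7.8 had 0 to 17. The other 3 genes of that clone were not members and did not share this pattern. The gene si:ch73-233f7.1 had 1317 and 1471 counts in WT and 1298 to 1822 in the mutant, si:ch73-233f7.7 had 78 and 246 against 63 to 134, and si:ch73-233f7.5 had 120 and 222 against 372 to 783. The clone therefore held genes that were lower, level and higher in the mutant.

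The remaining lower members were weak or unnamed. CR589944.1 had 103 and 177 counts in WT and 1 to 6 in the mutant, si:dkey-22i16.9 had 124 and 155 against 0 to 3, and si:ch211-274p24.2 had 66 and 78 against 1 to 26. ENSDARG00000104905 had 18 and 25 counts in WT and none in any mutant library. A further 12 members, ENSDARG00000103581 among them, had 16 to 123 counts in WT libraries and 0 to 25 in mutant libraries.

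Over the gene families listed, MHC and antigen processing held 3 members among 29 genes with at least 1 CPM (10.3%, against 0.427% of all genes), and they went both ways. The class II genes mhc2dga and mhc2dgb were lower. The gene mhc2dga (ENSDARG00000103716) had 226 and 50 counts in WT and 0 in 6 of the mutant libraries, with 1 and 3 in vehicle replicate 1 and valproate replicate 2. The gene mhc2dgb (ENSDARG00000104635) had 237 and 66 counts in WT and a single count over all 8 mutant libraries. The class I gene mhc1lda (ENSDARG00000023203) was higher, with no counts in WT, 43 and 17 with vehicle, 5, 25 and 42 with MPH, and 20, 56 and 15 with valproate.

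Other MHC genes varied between libraries of 1 genotype and were not members. The class II gene mhc2dab had 1 and 7 counts in WT, 714 and 1775 with vehicle, 406, 18 and 972 with MPH, and 521, 1709 and 589 with valproate, and fell short of the rule through MPH replicate 2 alone. It entered when libraries were scaled by the TMM method or by DESeq2 size factors. The class I gene mhc1zba had 2692 and 21 counts in WT and 1432 to 2703 in the mutant. Both members and non-members of this family thus showed libraries with almost no reads. Genes of a multigene family can share reads, and how reads were split between near-identical copies is uncertain for the MHC and clone-named genes.

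The other lists gave 1 or 2 members or none. The interferon and innate immune list held ifitm1 alone (1 of 76 genes) and the zinc finger list znf1056 (1 of 218). The list of cytochromes P450 and conjugating enzymes held cyp2aa8 (1 of 86) and the solute carriers slc16a6a (1 of 357). The proteases and inhibitors held serpina1 and serpina7 (2 of 68), both members only through valproate replicate 1. The list of complement and acute phase genes held hpdb (1 of 38), whose symbol its pattern matched although its enzyme belongs to tyrosine breakdown. None of the 95 ribosomal protein genes, 13 mitochondrially encoded genes, 8 histones, 4 haemoglobins or 22 genes of protein phosphatase 2A was a member. At a share of 0.427% over all genes, lists of these sizes can lack a member, and nothing is drawn from it.

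By features that the rule did not use, the members were poorly annotated. The genes set beside them were not matched for level, and most members were under 5 CPM. In the reference table of gene names, 30 of 78 members had a gene name (38.5%), against 84.4% of genes with at least 1 CPM, and 27 had a clone or library name only (34.6%, against 10.0%). The other 21 had no symbol in that table (26.9%, against 5.58%), although for some of them, such as pcdh2g1 and the BX511034 genes, the study's tables gave a name. By symbol, 35 of 78 members (44.9%) could be placed in the gene order of the RefSeq annotation of GRCz12tu, another assembly than that of the counts, against 68.4% of all these genes.

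Among the 35 placed members, 4 (11.4%) had another within 10 annotated genes, where 1.89% of the 12507 placed genes had a member so near. Within 5 genes the shares were 5.71% and 1.05%, and within 25 genes 14.3% and 4.64%. The nearest pair was mhc2dga and mhc2dgb, adjacent on chromosome 8 and both lower. On chromosome 25, si:ch211-147g22.4 lay 8 genes from mhc1lda and 11 from ENSDARG00000097573, and all 3 were higher and at 0 in WT. On chromosome 22, si:rp71-36a1.5, ENSDARG00000074085 and si:dkey-182g1.6, all higher, lay 57 and 84 genes apart. At like distances, members also went opposite ways: mhc1lda (higher) and si:dkeyp-50b9.1 (lower) lay 57 genes apart on chromosome 25. The genes ccdc125 (lower) and serpina7 (higher) lay 70 genes apart on chromosome 5, and serpina7 was a member only through valproate replicate 1. Since fewer members than other genes could be placed, these shares cover less than the set.

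Among the placed members, none lay within 50 annotated genes of the mutated gene. Only 35 of the 78 members were placed, and where the others lie relative to ppp2r2c is not known. In the same annotation ppp2r2c lies on chromosome 1, where 4 members were placed. The nearest, FGG, which was a member only through valproate replicate 1, was 255 genes away. Within 50 annotated genes on either side, 23 genes had at least 1 CPM and could be placed. Their log2 ratios of mutant to WT mean CPM ran from −1.14 for b4galt1 to 2.00 for slc24a2, a sodium, calcium and potassium exchanger with 3.59 CPM in WT and 14.4 CPM in the mutant. The mutant and WT libraries did not overlap for 5 of the 23, namely TMOD1, tspan5b, CHIC2, XPA and slc24a2, beside 10.2% of all 18282 genes.

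At the limit of the rule, the last members inside were zgc:103700 (a ratio of 0.397), MFAP4 (0.396) and btr32 (0.392). The first genes outside were si:ch211-39f2.3 (0.420), STXBP6 (0.420) and tex2l (0.426), all lower in the mutant.

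Within the mutant, the rule did not use the difference between drug groups, but it did use every treated library. Apart from ties at 0, a gene that a drug brought close to its WT level could not be a member. With the vehicle libraries as the only mutant libraries, 223 genes met the rule, 70 of them members of the full set. The shares of members in the drug comparisons are therefore not independent of the rule. After MPH, 43 of 19907 genes tested passed an adjusted p of 0.05 against vehicle in edgeR's quasi-likelihood test (0.216%), and none was a member. Of the 78 members, 43 had counts enough to be tested, 32 of the higher and 11 of the lower set. An unadjusted p under 0.05 was found for 3 of them (6.98%), against 11.7% of all genes tested: meiob, apol and si:dkey-71b5.3, named after their values were seen. The median log2 fold change was 0.30 over the higher and −0.14 over the lower members, beside 0.01 over all genes. Both rested on single libraries: without vehicle replicate 2 the higher members had a median of −0.02, and without vehicle replicate 1 the lower members had one of 0.43.

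The gene meiob had 1.76 CPM with vehicle and 4.95 CPM with MPH, a fitted log2 change of 1.59 with a standard error of 0.52 (adjusted p = 0.31, edgeR) with all 3 MPH libraries above both vehicle libraries. For apol, 18.5 CPM with vehicle stood against 10.6 CPM with MPH, a fitted log2 change of −0.71 with a standard error of 0.22 (adjusted p = 0.298, edgeR). For si:dkey-71b5.3 the values were 6.40 and 10.4 CPM, a fitted log2 change of 0.82 with a standard error of 0.33 (adjusted p = 0.385, edgeR). None of the 3 passed the correction, and in each the groups did not overlap. In all, 12 of the 43 members tested had groups that did not overlap, beside 31.0% of all genes.

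After valproate, 26 of 19850 genes tested passed the same threshold against vehicle (0.131%), and again none was a member. Of 45 members tested, 33 higher and 12 lower, 2 had an unadjusted p under 0.05 (4.44%, against 16.9% of all genes). The gene meiob had 4.60 CPM with valproate, a fitted log2 change of 1.40 with a standard error of 0.41 (adjusted p = 0.167, edgeR), and ENSDARG00000074085 had 6.11 CPM with vehicle and 9.83 CPM with valproate, a fitted log2 change of 0.68 with a standard error of 0.21 (adjusted p = 0.181, edgeR). DESeq2 called 1074 genes where edgeR called 26, and meiob was the only member among them (adjusted p = 0.0469, DESeq2 Wald test). The median log2 fold change was 0.25 over the higher and −0.07 over the lower members, beside 0.00 over all genes. The first fell to 0.06 with at least 10 counts required in every library and to 0.13 without valproate replicate 2, and the second turned to 0.11 without vehicle replicate 1 and to 0.19 without valproate replicate 3. The groups did not overlap for 4 of 45 members, beside 35.3% of all genes. Both drug comparisons share the 2 vehicle libraries, so the values of meiob in them are not independent.

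Between MPH and valproate, at matched days but different doses, no gene of 19387 passed the adjusted threshold in edgeR (0.0%), 787 had an unadjusted p under 0.05 (4.06%), and DESeq2 called 40 genes. Of the 41 members tested, none had an unadjusted p under 0.05, and 1 had groups that did not overlap, beside 9.49% of all genes. The median log2 fold change was −0.06 over 32 higher and −0.01 over 9 lower members.

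**Figure D5:**
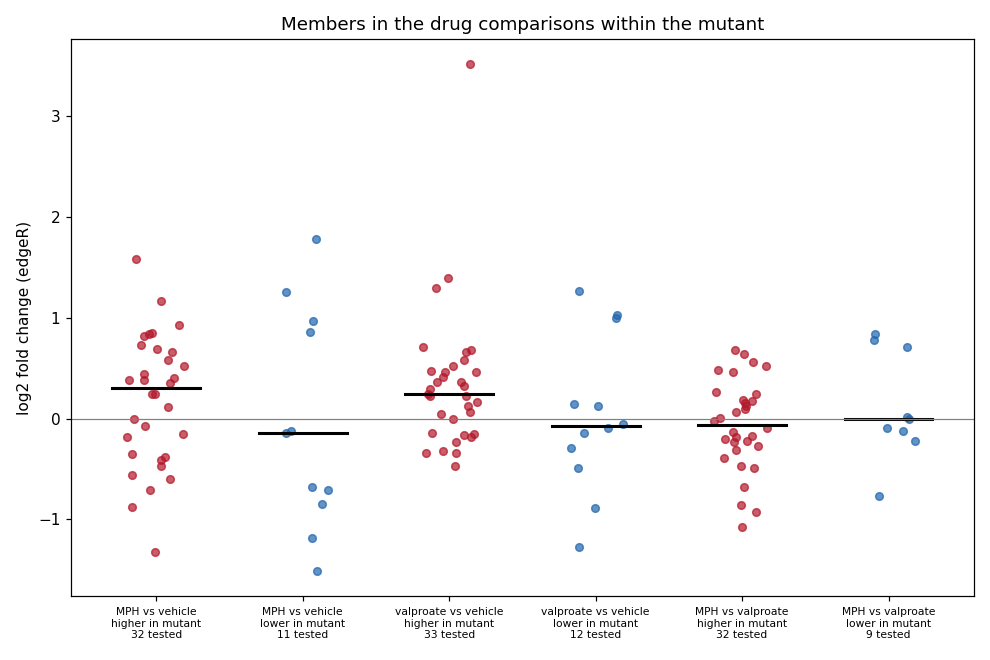
Fitted log2 fold changes of the members tested in the 3 drug comparisons within the mutant, in red for members higher and in blue for members lower in the mutant; black bars are medians. No member passed an adjusted p of 0.05 in edgeR, and the medians lie between −0.14 and 0.30.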

How the data were processed

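The authors filtered reads, mapped them to the zv10 genome with STAR 2.6.1d and took its GeneCounts output. What was deposited is 1 table of raw counts per gene for 10 libraries. The strand setting is not given in the sources used here.

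CPM is the count over the column sum. Drug groups were compared within the mutant in edgeR 4.0.16 (R 4.3.3, limma 3.58.1) with filterByExpr (smallest count 10, smallest total 15), TMM and the quasi-likelihood test, each comparison on its own groups, with Benjamini-Hochberg adjustment over all genes tested. The fit was tested on simulated data. DESeq2 1.42.0, other scalings, filters and limits, a replicate block and leaving out each library were alternatives. A fold against a group at 0 used 3 counts per library.

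The members and gene lists were chosen with earlier results of these data known. Named genes were the 8 most abundant members per direction, the 5 most abundant at 0 in one genotype, those of a list, those nearest the limit or ppp2r2c, those of widest and narrowest spread, and those passing a drug test; others were added after their values were seen. Names came from a gene table and, for 20 members, the study's tables. Python 3.11.15, pandas 2.3.3 and matplotlib 3.10.9 were used.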

Additional observations from a re-analysis of the deposited data

How the results depend on the processing

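Scaling by TMM or DESeq2 size factors gave 77 members, 75 of them shared. Under both scalings zgc:103700, btr32 and ENSDARG00000104905, all lower, were lost, and mhc2dab and cfhl4, both higher, were gained. A ratio limit of 0.25 left 20 lower members, a mean of at least 0.5 CPM gave 63 higher, and a mean of at least 5 CPM left 7 higher and 14 lower. With the vehicle libraries as the only mutant libraries there were 77 higher and 146 lower, 70 of all shared with the full set. Leaving out each library gave 32 to 148 higher and 42 to 174 lower members: without WT replicate 1 there were 111 and 174, without WT replicate 2 there were 148 and 112, and without any 1 mutant library 77 to 92 in all. The number of genes called after MPH was 495 with DESeq2, 219 without a filter and 1 to 731 when each library was left out (731 without MPH replicate 3, 1 without vehicle replicate 2). After valproate it was 1074 with DESeq2, 267 without a filter, 78 with at least 10 counts in every library, 14 in one fit of all mutant libraries and 0 to 712 when each library was left out (712 without valproate replicate 1). Between MPH and valproate it was 40 with DESeq2, 1 without a filter and 0 to 1 when each library was left out. Of the 1074 genes that DESeq2 called after valproate, 1 was a member, meiob. The median log2 fold change of lower members after MPH ran from −0.38 to 0.43 when each library was left out (0.43 without vehicle replicate 1), and between the drugs it was −0.64 with DESeq2 and −0.65 without a filter, which test more members at low counts. The median of higher members after MPH ran from −0.02 to 0.43 when each library was left out. After valproate, the median of lower members turned positive with DESeq2 (0.11), without a filter (0.11), in one fit (0.13) and with the replicate block (0.09), and the median of higher members ran from 0.13 to 0.37 when each library was left out. The cause of the other shifts was not tested. Replicate numbers are shared in the labels, and same-numbered libraries deviated from their group means with correlations of −0.19 to 0.14. Libraries of different numbers were not compared, so these values cannot decide whether the numbers pair libraries. The replicate block called 2689 of the 19907 genes tested after MPH. Among the 43 members tested it called 4 (meiob, si:dkey-71b5.3, zmp:0000001082 and nots), no larger a share than over all genes. It gave 135 genes and 0 members after valproate, and 2 genes and 0 members between the drugs. Vehicle has no replicate 3, so in the blocked fits against vehicle replicate 3 of the drug stood alone in its block. It did not inform the contrast, which rested on replicates 1 and 2 of vehicle and drug. With 2 WT libraries and most members under 5 CPM, depth limits the weak members most.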
